A study of Mus musculus with 16 samples.

Results

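The 33 sarcomere and Z-disc genes described here were taken by name from the 53764 genes of a deposited table of read counts, and all 33 were among the 15841 genes expressed highly enough to be tested. RNA came from the left ventricle of male C57BL/6J mice, which at 8 weeks of age were put on a low-fat control diet (CD) or a diet high in fat and sucrose (HFHS) and were kept on it for 4 months. Mice on either diet were left untreated or received ertugliflozin, which blocks the kidney glucose transporter SGLT2, in the food at 0.5 mg per g. The 4 groups, CD untreated, CD ertugliflozin, HFHS untreated and HFHS ertugliflozin, had 4 libraries each. All mice were of 1 sex and strain, no group carried a genetic change, and the sequenced animals were a subset that the submitters selected as representative. The tissue was powdered whole, so a lower value may come from less RNA per cardiomyocyte or from a smaller share of cardiomyocytes, and bulk samples cannot tell these apart.

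The sarcomere is the contractile unit of striated muscle. Thin filaments of actin, tropomyosin and the 3 troponins slide along thick filaments of myosin, and calcium binding to troponin C allows the heads to attach. Thin filaments are anchored at the Z-disc by alpha-actinin, thick filaments are held at the M-band, titin spans from one to the other, and desmin filaments tie neighbouring myofibrils together. Chaperones and ubiquitin ligases of the TRIM family assemble and turn over these proteins, and in the ventricle contractile transcripts are among the most abundant of all. The members were ordered by these roles: 9 of the thin filament, 4 of the thick filament, 3 of titin and the M-band, 10 of the Z-disc, desmin and its chaperone, and 5 of assembly and turnover.

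Levels of different genes were compared per length, as CPM (counts scaled by the library total) divided by the kilobases of each gene's merged exons. Cardiac actin Actc1 stood highest at 6699 ± 644 (SD over 16 libraries). The ventricular light chains Myl2 (3694 ± 348) and Myl3 (2441 ± 191) came next, before troponin C Tnnc1 (2254 ± 176), troponin I Tnni3 (1947 ± 191), the tropomyosin Tpm1 (1452 ± 70.1), myosin binding protein C Mybpc3 (1098 ± 80.0) and troponin T Tnnt2 (1054 ± 103). The most abundant of the Z-disc group was Tcap, the cap of titin's end there, at 998 ± 322, and the desmin chaperone Cryab (alphaB-crystallin) was at 952 ± 67.1. Mybpc3, Tnnt2, Tcap and Cryab lay within their spread of each other. Of the M-band and titin group Myom1, myomesin, was highest per length at 228 ± 12.8, and of the assembly group the ligase Trim54 at 212 ± 13.1. Titin, Ttn, took many counts (7933 CPM) but stood at only 67.9 ± 10.6 per kilobase, and the nebulette gene Nebl was lowest at 37.7 ± 2.39. With the longest transcript in place of the merged exons Myl2 stood above Actc1, so the top of this order depends on the length used.

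**Figure D1:**
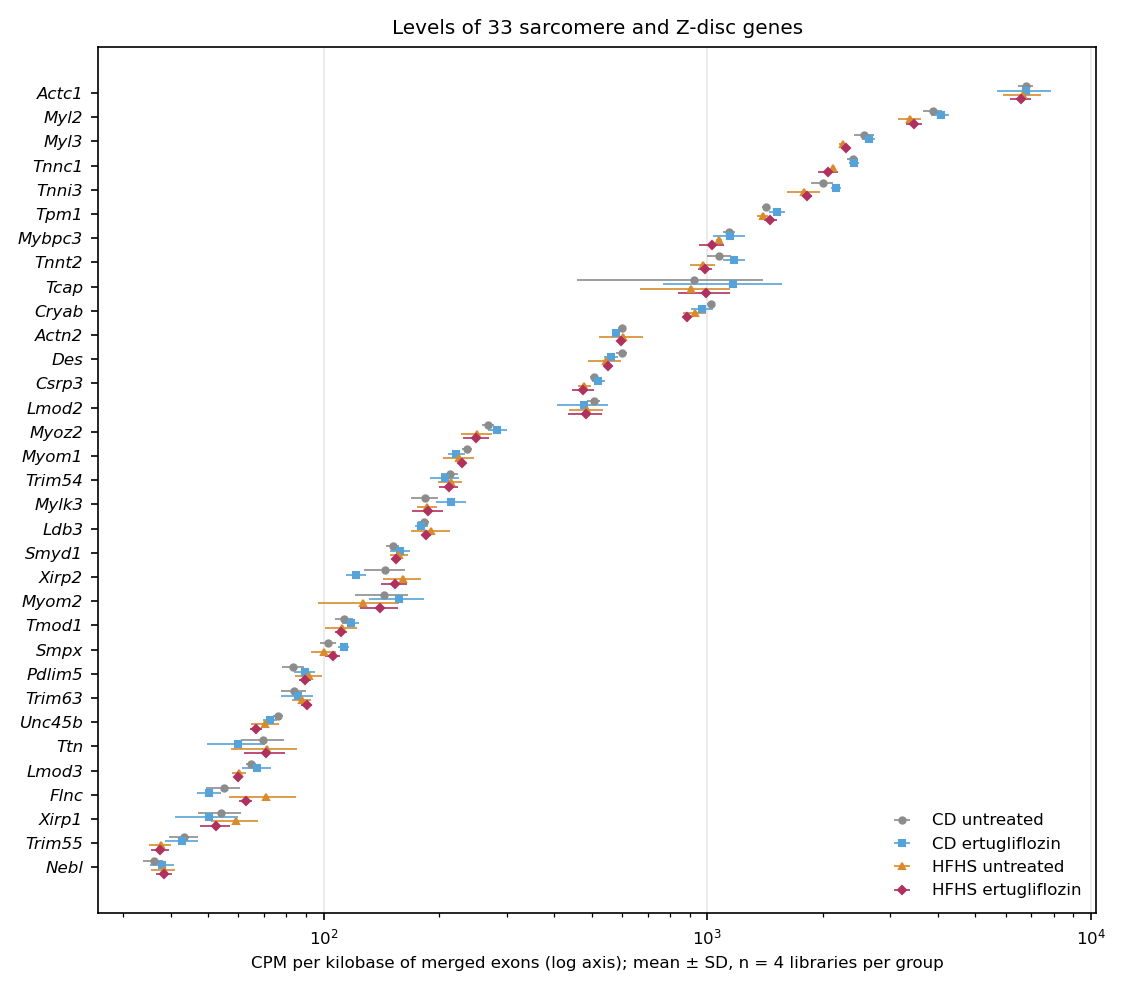
Level of each of the 33 genes, as CPM per kilobase of merged exons on a log axis; points are means of 4 libraries in each of the 4 groups and bars are SD. The genes range from 6699 (Actc1) to 37.7 (Nebl) over all libraries, the groups lie close together for nearly every gene, and Tcap has the widest bars.

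The libraries held 14637669 to 21452212 counts, of which the 33 genes took 8.20% to 8.52% in CD untreated, 8.12% to 8.60% in CD ertugliflozin, 7.73% to 8.08% in HFHS untreated and 7.67% to 8.15% in HFHS ertugliflozin. The 10 markers of ventricular cardiomyocytes, among them several of the members, summed to 92786 to 115977 CPM over all libraries, as the tissue label says. These sums were 102899 to 115977 CPM in CD untreated and 102677 to 115403 CPM in CD ertugliflozin. They were 92786 to 112151 CPM in HFHS untreated and 98800 to 107446 CPM in HFHS ertugliflozin. Over both drug arms 5 of the 10 fell on HFHS and 0 rose, with a median log2 fold change of −0.12. Of all genes tested 5.01% fell. Markers of atrial cardiomyocytes (10 genes) summed to 135 to 1093 CPM in CD untreated and to at most 207 CPM elsewhere, and 9 valve and cartilage markers to 34.6 to 205 CPM in CD untreated and to at most 56 CPM elsewhere. The 6 endothelial markers summed to 1135 to 1236 CPM in CD untreated and 1325 to 1545 CPM in HFHS untreated, and to 1162 to 1322 CPM and 1262 to 1415 CPM in the treated groups. With drug all 6 macrophage markers (median log2 fold change −0.37) and all 5 erythroid markers (−0.33) were lower on HFHS and 5 of 7 fibroblast markers were higher (median 0.38), of which 1, a fibroblast marker, passed the edgeR threshold. Without drug these medians were 0.03, 0.14 and 0.07, and 1 fibroblast marker passed, higher on HFHS. In that arm 2 of 6 endothelial markers passed, higher on HFHS, and 2 of 8 tested valve and cartilage markers, lower on HFHS. With drug 0 of these endothelial and valve markers passed. The atrial light chain Myl7 was at 6.03 to 234 CPM in CD untreated and 0 to 3.55 CPM in HFHS ertugliflozin, and no gene of these lists was at 0 in every library. HFHS untreated replicate 1 stood apart from its group, with lower Actc1, Myom1, Ttn and Flnc. Long transcripts were also higher relative to short ones on HFHS, as given below with the members' lengths. What these differences contribute to the members' values was not tested beyond the alternatives given.

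Over both drug arms, the HFHS diet went with lower RNA of all 3 cardiac troponins and both ventricular light chains and with higher RNA of the large actin-binding proteins Flnc and Xirp2. Of 33 members 2 rose and 8 fell at an adjusted p under 0.05 (edgeR quasi-likelihood test, Benjamini-Hochberg adjustment over all genes). That is 6.06% risen and 24.2% fallen, beside 6.59% risen and 5.01% fallen among all genes tested (11.6% called in all). The share that rose was near that of all genes and the share that fell was above it. These shares are over genes of every length, and counts by length are given below. The median log2 fold change of the members was −0.07, and that of all genes −0.01. Changes were small, each called fall being between 9% and 13.8% in size.

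In the thin filament 4 of 9 members fell and 0 rose. Tnnc1, the calcium sensor of the troponin complex, measured 2449.6, 2492, 2421 and 2617 CPM in the CD untreated libraries, 2442, 2532, 2481 and 2614 in CD ertugliflozin, 2219, 2233, 2182 and 2238 in HFHS untreated and 1968, 2221, 2202 and 2236 in HFHS ertugliflozin. Every HFHS library lay below every CD library, and HFHS ertugliflozin replicate 1 was the lowest. Tnnc1 fell by 12.7% (log2 fold change −0.20 ± 0.03, SE, edgeR adjusted p = 0.00108). Tnni3, the inhibitory subunit, measured 4327, 3967, 3823 and 4388 CPM in CD untreated, 4332, 4597, 4406 and 4603 in CD ertugliflozin, 4071, 3186, 3816 and 3708 in HFHS untreated and 3701, 3805, 3646 and 3894 in HFHS ertugliflozin. The diets overlapped without drug, through HFHS untreated replicate 1, and did not overlap with it. Tnni3 changed by −0.21 ± 0.05 (edgeR adjusted p = 0.00632). It shares 86 bases of exon with Dnaaf3 on the same strand, and reads there cannot be assigned from the sources used here. Tnnt2, which binds the complex to tropomyosin, measured 9008, 8045, 7649 and 8596 CPM in CD untreated, 8771, 9267, 8541 and 9902 in CD ertugliflozin, 8189.5, 6892, 7359.8 and 7826 in HFHS untreated and 7794, 7462, 7367 and 8021 in HFHS ertugliflozin. Here too the diets overlapped only without drug. Tnnt2 changed by −0.19 ± 0.05 (edgeR adjusted p = 0.00932). In GRCm38 Tnnc1 (ENSMUSG00000091898) lies at chr14:31208312-31211729, Tnni3 (ENSMUSG00000035458) at chr7:4518305-4524229 and Tnnt2 (ENSMUSG00000026414) at chr1:135836354-135852260.

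The fourth was Lmod3, a leiomodin that nucleates actin filaments. Its lowest and highest libraries were 138 and 147 CPM in CD untreated, 137 and 165 in CD ertugliflozin, 128 and 139 in HFHS untreated and 130.3 and 137 in HFHS ertugliflozin. The ranges met or nearly met in both arms. Lmod3 changed by −0.14 ± 0.04 (edgeR adjusted p = 0.026), and its call ended without CD ertugliflozin replicate 4, without HFHS untreated replicate 3 or 4, and without HFHS ertugliflozin replicate 1 or 2. Actc1, the main actin of the filament, measured 10942, 11554, 10898 and 10408 CPM in CD untreated, 12484, 9340.4, 9569 and 12543 in CD ertugliflozin, 8922, 11379, 11608 and 11238 in HFHS untreated and 9919.6, 11156, 10258 and 11197 in HFHS ertugliflozin. The groups overlapped widely, and its diet difference was −0.03 ± 0.07 (edgeR adjusted p = 0.798). The protein of Actc1 is nearly identical to that of the skeletal actin gene Acta1. How any reads that match both genes were counted is not given in the sources used here. Tpm1, whose tropomyosin covers the myosin binding sites of actin, differed by −0.05 ± 0.03 (edgeR adjusted p = 0.412). Tmod1 and Lmod2, which act at the filament's pointed end, and Nebl lay between −0.05 and 0.05 and did not pass.

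Both light chains of the thick filament fell. Myl3, the essential light chain of ventricular myosin, measured 5088, 4974, 5279 and 5668 CPM in CD untreated, 5151, 5366, 5365 and 5668 in CD ertugliflozin, 4476, 4599.7, 4715 and 4665 in HFHS untreated and 4595, 4763, 4614 and 4840.0 in HFHS ertugliflozin. All 8 HFHS libraries were below all 8 CD libraries. Myl3 fell by 12.4% (−0.19 ± 0.03 on the log2 scale, edgeR adjusted p = 0.00142). Myl2, the regulatory light chain, measured 7739.6, 7233, 7185 and 8052 CPM in CD untreated, 7414, 8308, 8219 and 7734 in CD ertugliflozin, 6903, 5929, 6879 and 6595 in HFHS untreated and 6402, 7006, 6548 and 7095 in HFHS ertugliflozin. The diets again did not overlap, and the lowest value was that of HFHS untreated replicate 2. Myl2 fell by 13.8% (−0.21 ± 0.04, edgeR adjusted p = 0.00312). Myl3 (ENSMUSG00000059741) lies at chr9:110741861-110769798 and Myl2 (ENSMUSG00000013936) at chr5:122100951-122113472. Mylk3, the cardiac kinase that phosphorylates the regulatory light chain, differed by −0.09 ± 0.05 (edgeR adjusted p = 0.295), and Mybpc3, which links the thick filament to actin, by −0.12 ± 0.04 (edgeR adjusted p = 0.0816). Of titin and the M-band 0 of 3 passed. Myom1 measured 2577, 2447, 2435 and 2437 CPM in CD untreated, 2404, 2284, 2168 and 2425 in CD ertugliflozin, 2029, 2428, 2503 and 2478 in HFHS untreated and 2390.2, 2439, 2317 and 2463 in HFHS ertugliflozin. One library, HFHS untreated replicate 1, was low and the rest overlapped. Ttn stood at 0.14 ± 0.11 and the second myomesin Myom2 at −0.17 ± 0.12.

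At the Z-disc 2 of 10 members rose and 0 fell. Flnc, filamin C, which crosslinks actin at the Z-disc and is recruited to damaged sarcomeres, measured 524, 550.3, 551 and 440.3 CPM in CD untreated, 501, 424, 489 and 479 in CD ertugliflozin, 477, 724, 785 and 676 in HFHS untreated and 562, 598, 585 and 617 in HFHS ertugliflozin. Apart from HFHS untreated replicate 1, every HFHS library was above every CD library. Flnc rose by 26.8% (0.34 ± 0.08 on the log2 scale, edgeR adjusted p = 0.0136). Xirp2, a Xin repeat protein that binds actin, measured 1777, 1989, 1709 and 1472 CPM in CD untreated, 1412, 1576, 1462 and 1371 in CD ertugliflozin, 1671, 2198, 1908 and 1943 in HFHS untreated and 1625, 1874, 1913 and 1937 in HFHS ertugliflozin. The diets overlapped without drug and not with it. Xirp2 rose by 18.4% (0.24 ± 0.06, edgeR adjusted p = 0.0165). Flnc (ENSMUSG00000068699) lies at chr6:29433256-29461883 and Xirp2 (ENSMUSG00000027022) at chr2:67446002-67526614. Its relative Xirp1 stood at 0.09 ± 0.10, the alpha-actinin Actn2 at 0.02 ± 0.05, and the PDZ and LIM proteins Ldb3 and Pdlim5 at 0.06 ± 0.05 and 0.07 ± 0.04. The muscle LIM protein Csrp3 (−0.11 ± 0.04, edgeR adjusted p = 0.0633) and the calcineurin-binding Myoz2 (−0.14 ± 0.05, edgeR adjusted p = 0.0716) did not pass.

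Of the other 7 members 2 fell. Cryab, a small heat shock protein that protects desmin, measured 1502, 1559, 1498 and 1486 CPM in CD untreated, 1389.6, 1350.0, 1439.8 and 1573 in CD ertugliflozin, 1255, 1462, 1426 and 1352 in HFHS untreated and 1302, 1327, 1285 and 1322 in HFHS ertugliflozin. Within each arm the diets did not overlap, and CD ertugliflozin lay partly inside the HFHS untreated range. Cryab changed by −0.14 ± 0.04 (edgeR adjusted p = 0.0251). Its call ended without CD untreated replicate 2, HFHS untreated replicate 4 or HFHS ertugliflozin replicate 1 or 3. It shares 252 bases of exon with Hspb2 on the opposite strand, and the strand setting of the counting is not given in the sources used here. Desmin itself, Des, stood at −0.08 ± 0.04 (edgeR adjusted p = 0.208). Trim55, a muscle ubiquitin ligase also called MuRF2, measured 127, 112, 117 and 104 CPM in CD untreated, 128, 107, 103 and 118 in CD ertugliflozin, 91.6, 98.2, 105 and 106 in HFHS untreated and 98, 101, 93.8 and 107 in HFHS ertugliflozin. The diets overlapped in both arms. Trim55 changed by −0.20 ± 0.05 (edgeR adjusted p = 0.0176), while its relatives Trim63 (MuRF1, 0.08 ± 0.05) and Trim54 (MuRF3, 0.02 ± 0.05) did not pass; the difference among the 3 was not tested. Trim54 had the ranges 296 to 330.0 CPM in CD untreated, 266 to 328 in CD ertugliflozin, 283 to 329.7 in HFHS untreated and 286 to 328 in HFHS ertugliflozin. The myosin chaperone Unc45b (−0.12 ± 0.04, edgeR adjusted p = 0.0593) and the methyltransferase Smyd1, which acts in myofibril assembly (0.01 ± 0.04), did not pass.

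**Figure D2:**
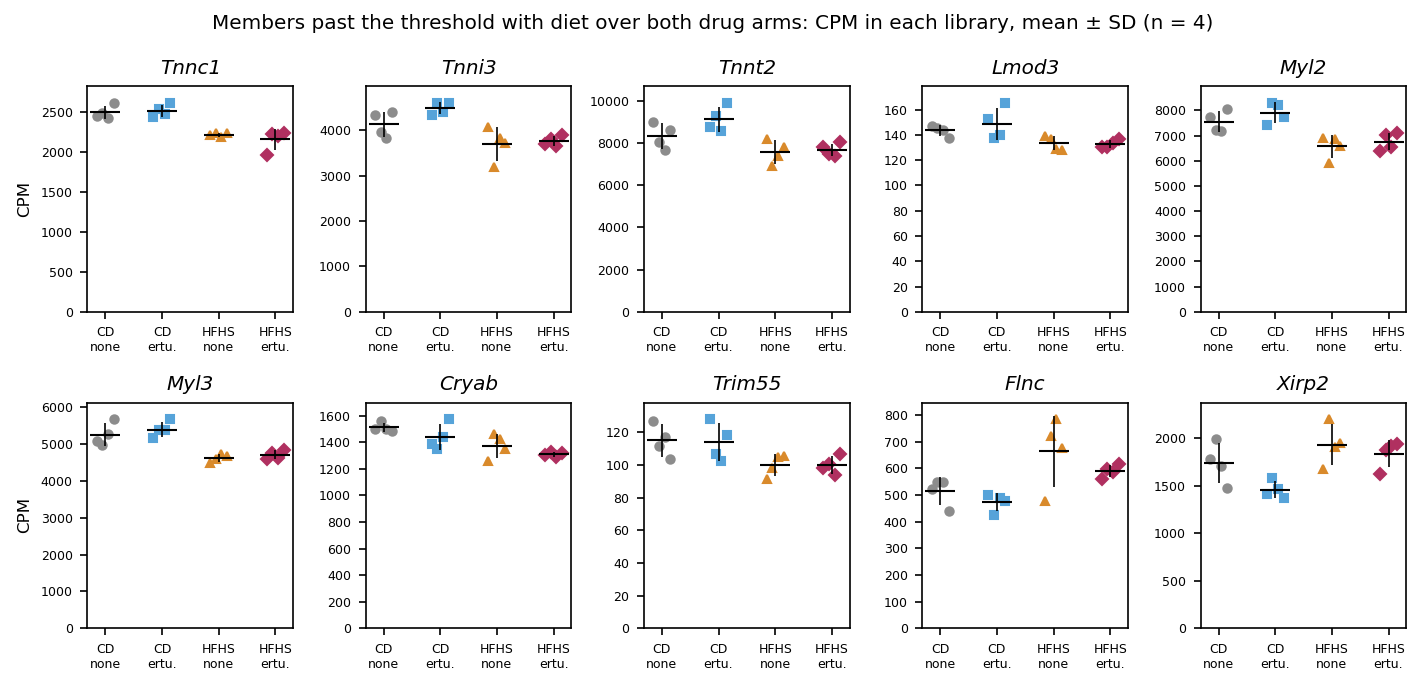
CPM of the 10 genes past the threshold for diet over both drug arms, 1 panel a gene, each axis from 0; points are the 4 libraries of a group, the dash and bar are mean ± SD. Tnnc1, Myl2 and Myl3 show no overlap between CD and HFHS libraries, and 1 HFHS untreated library of Flnc (477 CPM) lies among the CD libraries.

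With atrial and valve marker scores as covariates 5 of these 10 calls were kept and those of Myl2 (log2 fold change −0.19, edgeR adjusted p = 0.0585), Flnc (0.37, 0.0883), Trim55 (−0.20, 0.0885), Cryab (−0.16, 0.0815) and Lmod3 (−0.17, 0.0506) ended. The size of the difference was a little smaller for Myl2 and at least as large for the other 4. Without CD untreated replicates 2 and 3, the libraries of that group left out together as an alternative, those of Cryab and Lmod3 ended, and with no filter on low counts that of Flnc did (edgeR adjusted p = 0.0504). The calls kept were those of Tnnc1, Tnni3, Tnnt2, Myl3 and Xirp2. Among all genes tested 1837 passed for diet over both arms in the main fit, and 777 to 2464 under the alternatives that include these fits. Whether members lost their calls more often than other genes was not tested.

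The changed genes' promoter sequences are shown for the pair of fallen members with the smallest p and for both risen members, to set side by side the letters upstream of genes that moved together. Each is the 250 bases before a RefSeq transcript start on the gene's own strand, 5′ to 3′, on GRCm38.p6. For Myl3 that start lies inside the GENCODE gene given above, whose outermost transcript begins further upstream, and for the other 3 it is the start of the gene. Capitals mark matches, on either strand, to the MEF2 core TAAAAATA, the MCAT motif CATTCC, the GATA motif AGATAA or the CArG box bound by serum response factor. The windows are chr14:31208062-31208311 (plus strand) for Tnnc1, chr9:110763428-110763677 (plus strand) for Myl3, chr6:29433006-29433255 (plus strand) for Flnc and chr2:67445752-67446001 (plus strand) for Xirp2.
Tnnc1: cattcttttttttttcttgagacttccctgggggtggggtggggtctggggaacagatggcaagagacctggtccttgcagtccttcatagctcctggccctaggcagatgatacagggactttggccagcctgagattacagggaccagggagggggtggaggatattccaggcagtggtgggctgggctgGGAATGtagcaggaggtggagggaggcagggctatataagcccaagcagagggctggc
Myl3: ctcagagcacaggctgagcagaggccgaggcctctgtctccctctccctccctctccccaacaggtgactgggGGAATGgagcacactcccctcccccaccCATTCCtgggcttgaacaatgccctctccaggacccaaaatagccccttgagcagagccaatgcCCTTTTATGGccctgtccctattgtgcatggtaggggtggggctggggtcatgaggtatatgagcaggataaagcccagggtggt
Flnc: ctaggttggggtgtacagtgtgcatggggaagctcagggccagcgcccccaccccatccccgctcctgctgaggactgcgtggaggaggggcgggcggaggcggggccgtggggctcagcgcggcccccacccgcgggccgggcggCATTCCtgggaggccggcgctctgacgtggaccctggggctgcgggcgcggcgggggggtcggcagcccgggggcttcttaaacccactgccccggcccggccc
Xirp2: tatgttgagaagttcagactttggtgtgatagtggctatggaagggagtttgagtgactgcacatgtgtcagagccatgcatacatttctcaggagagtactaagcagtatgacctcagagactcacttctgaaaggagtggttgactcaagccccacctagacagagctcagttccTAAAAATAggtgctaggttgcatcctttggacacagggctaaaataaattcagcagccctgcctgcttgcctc

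The MCAT motif, the binding letters of TEAD factors, stood 58 bases before the start in Tnnc1, 149 and 177 bases before it in Myl3 and 104 bases before it in Flnc. It thus occurred in some fallen and some risen members. Among the other fallen members Tnnt2 held it and Tnni3 and Myl2 did not, while Lmod3, Trim55 and Cryab had no RefSeq promoter. Xirp2 had the MEF2 core, 73 bases before the start, and Myl3 had a CArG box at 85 bases. The 27 members with a RefSeq promoter had 37 windows, of which 10 held the MCAT motif, 7 the GATA motif, 6 the CArG box (in Actc1, Ldb3, Myl3, Myom1 and Nebl) and 1 the MEF2 core. Among all 32851 promoter windows of that length the shares were 12.6%, 9.99%, 1.47% and 2.45%, in the same order. These are matches of letters in a window and say nothing of binding.

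The diet effect was then read in each drug arm. With ertugliflozin in both groups, 6 of 33 members changed, 1 up and 5 down (3.03% and 15.2% of the members, beside 2.15% and 1.53% of all genes, 3.69% in all). Xirp2 rose by 0.34 ± 0.09 on the log2 scale (edgeR adjusted p = 0.0414). Tnnc1 (−0.22 ± 0.05, edgeR adjusted p = 0.0131), Myl3 (−0.20 ± 0.05, 0.0301), Tnni3 (−0.25 ± 0.06, 0.0336), Tnnt2 (−0.25 ± 0.06, 0.0347) and Myl2 (−0.23 ± 0.06, 0.0403) fell. The median over members was −0.09, and over all genes −0.01. The CPM of the groups did not overlap for 9 members, 2 higher (Xirp2 and Flnc) and 7 lower (Tnnc1, Tnni3, Tnnt2, Lmod3, Myl2, Myl3 and Cryab). That is 6.06% and 21.2% of members, beside 6.79% and 6.38% of all genes (13.2% in all). Mylk3 measured 933, 944, 807 and 1004 CPM in CD ertugliflozin and 904, 738, 755 and 811 in HFHS ertugliflozin. The ranges overlapped, with CD ertugliflozin mostly the higher, at −0.20 ± 0.08 (edgeR adjusted p = 0.154). The count of 6 fell to 2 without CD ertugliflozin replicate 2 or 3 and to 1 without CD ertugliflozin replicate 4 or without any HFHS ertugliflozin replicate. It was 3 with the marker scores as covariates. Over all genes 584 passed in the main fit, 287 to 844 without 1 library and 397 to 906 under the other alternatives.

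Without drug 0 of 33 members passed the edgeR test, where 2.06% of all genes did (1.45% higher and 0.619% lower). There were 10 members with an unadjusted p under 0.05 (30.3%, beside 16.5% of all genes), 2 higher and 8 lower. DESeq2 and limma-voom with sample weights each called 4, Flnc up and Tnnc1, Myl2 and Myl3 down. The number of all genes called in this arm moved too. It was 327 in the main fit, 133 to 846 without 1 library and 0 to 743 under the other alternatives. Nearest to the edgeR threshold were Myl3 (−0.19 ± 0.05, adjusted p = 0.0511), Tnnc1 (−0.17 ± 0.05, 0.0725), Myl2 (−0.20 ± 0.06, 0.0898), Flnc (0.37 ± 0.12, 0.117) and Trim55 (−0.20 ± 0.07, 0.158). The CPM of 6 members did not overlap, all 6 lower on HFHS (18.2%, beside 4.22% lower and 4.11% higher among all genes, 8.33% in all). These were Tnnc1, Myl2, Myl3, Cryab, Mybpc3 and Csrp3. Mybpc3 measured 5004, 4616, 4765 and 4648 CPM in CD untreated and 4579, 4406, 4474 and 4405 in HFHS untreated, and Csrp3 measured 1392, 1344, 1334 and 1334 against 1315, 1245, 1327 and 1228. The gaps of both were narrow, with edgeR adjusted p = 0.5 and 0.476. The median over members was −0.04, and over all genes −0.00. Without HFHS untreated replicate 1, 3 members passed: Flnc at 0.50 (edgeR adjusted p = 0.00142), Myl2 and Myl3. Without CD ertugliflozin replicate 4, which is in neither group compared, Myl3 passed (−0.18, edgeR adjusted p = 0.0449). That library enters through the filter, scaling, dispersion and adjustment, which all groups share.

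The 2 diet comparisons share no library. The members' log2 fold changes had the same sign in 29 of 33 (10 higher and 19 lower in both), or 87.9%, and those of all genes tested in 68.7%. None of the members differed between the arms by the edgeR interaction test, where 0.0189% of all genes did. Its smallest p was for Mylk3 (−0.22 ± 0.11, unadjusted p = 0.0539, adjusted p = 1). For the called members the interaction was −0.05 ± 0.07 for Tnnc1, −0.01 ± 0.07 for Myl3, −0.03 ± 0.08 for Myl2, −0.09 ± 0.09 for Tnni3, −0.11 ± 0.09 for Tnnt2, −0.05 ± 0.16 for Flnc and 0.18 ± 0.12 for Xirp2. SE values over all members were 0.07 to 0.46, the largest being that of Tcap. No member had an unadjusted p under 0.05 for the interaction, beside 4.27% of all genes.

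**Figure D3:**
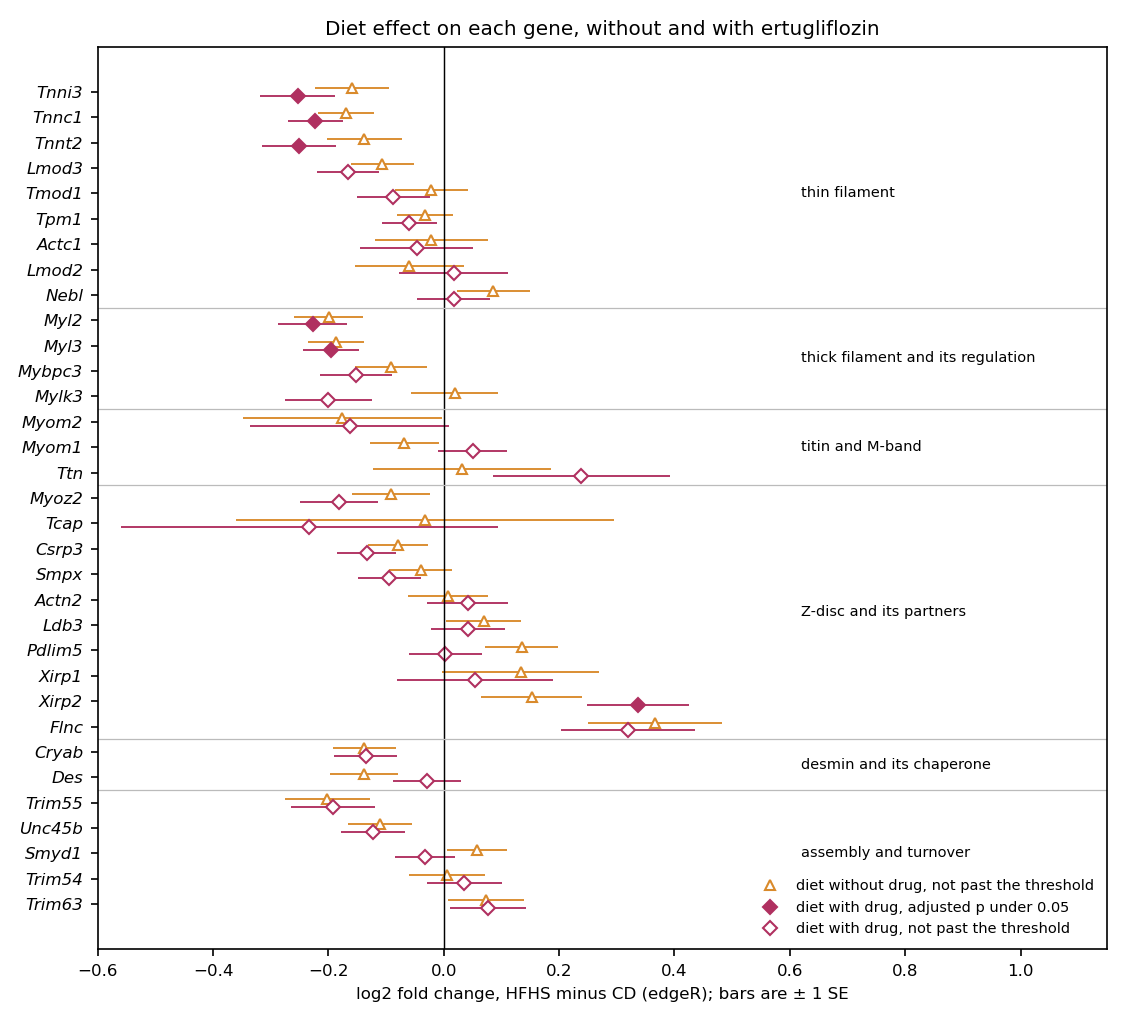
Log2 fold change, HFHS minus CD, of each of the 33 genes without drug (triangles) and with ertugliflozin (diamonds), ordered by role, with bars of ± 1 SE; filled symbols passed edgeR's adjusted threshold. The 6 filled symbols are, all with drug, and both comparisons place the troponins and light chains below 0 and Flnc and Xirp2 above it.

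Members that fell mostly had shorter transcripts than the other members, and both risen ones had long transcripts. The longest annotated transcript of the 8 fallen members had 721 to 3330 bases (median 1121), and those of Flnc and Xirp2 had 9038 and 11979. The 23 members that were not called had 948 to 106824 bases (median 3158). By this length Tnnt2 (3330) was a longer member that fell, and Actc1 (1473), Trim54 (1434) and Smpx (1152) were short members that did not pass. Which transcript of a gene the heart expressed was not tested, and it may be shorter than the longest annotated one. The same gradient was present in all genes. For diet over both arms the median log2 fold change was −0.08 for genes of up to 1000 bases and 0.08 for genes above 10000 bases. Of 1636 genes of up to 1000 bases 15 rose and 119 fell, and of 2768 genes of 1000 to 2000 bases 60 and 237. Of 948 genes of 7000 to 10000 bases, the class of Flnc, 179 rose and 16 fell. Of 354 genes above 10000 bases, the class of Xirp2, 73 rose and 5 fell. Over the 33 members Spearman's rho of length with the diet effect was 0.63, and over 15831 genes 0.28, as a description, since genes share the libraries. Within the class of up to 1000 bases the 4 members Tnnc1, Myl2, Tnni3 and Tcap had a median of −0.20. Per library, the median of genes above 7000 bases minus that of genes up to 1000 bases, on the centred log2 scale, was −0.05 ± 0.05 in CD untreated, −0.11 ± 0.07 in CD ertugliflozin, 0.09 ± 0.12 in HFHS untreated and 0.06 ± 0.07 in HFHS ertugliflozin (SD, n = 4 each). HFHS untreated replicate 1 was at −0.09, on the side of the CD libraries.

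A correction for length and GC content in each library was added after the data were seen. With it 9 members passed for diet over both arms, 1 up and 8 down. Over all genes 777 to 2464 passed under the alternatives that include it, beside 1837 in the main fit. Xirp2 (0.16, edgeR adjusted p = 0.133), Cryab (−0.07, 0.261) and Lmod3 (−0.11, 0.0666) no longer passed, while Unc45b (−0.14, edgeR adjusted p = 0.0255) and Mybpc3 (−0.15, 0.0428) did. The calls of Flnc (0.24), Tnnc1 (−0.13), Tnni3 (−0.14), Tnnt2 (−0.20), Myl2 (−0.15), Myl3 (−0.13) and Trim55 (−0.18) were kept. With drug 1 member passed in place of 6, Tnnt2 (−0.26, edgeR adjusted p = 0.0374). The correction took the longest annotated transcript of each gene, so its result for Tnnt2 depends on that length. Whether the length gradient is of the tissue or of the libraries was not tested.

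**Figure D4:**
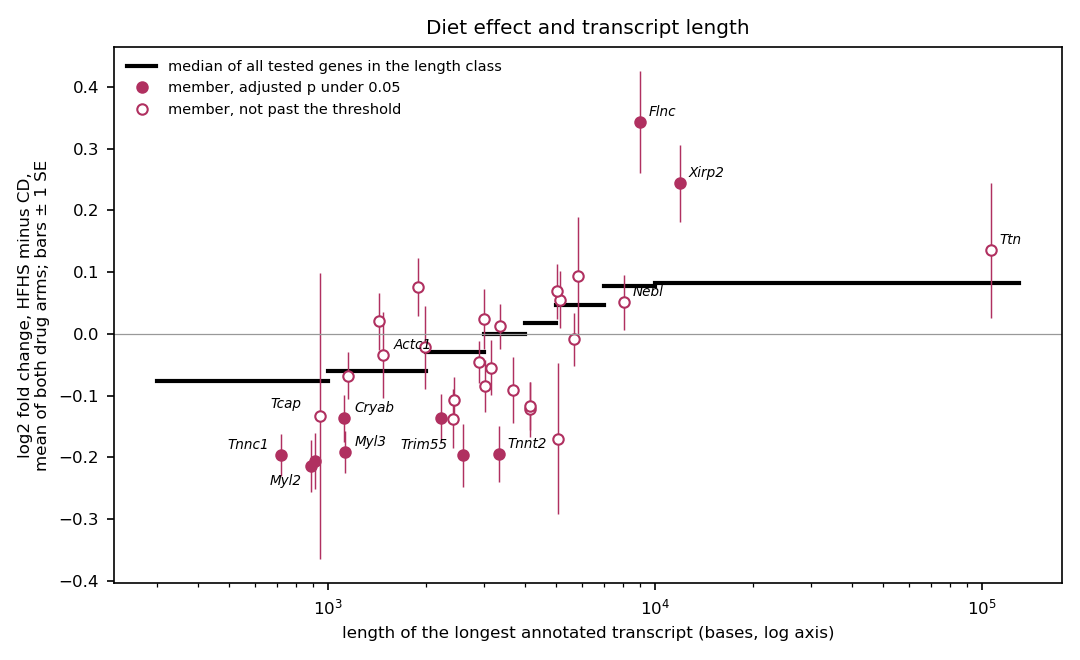
Log2 fold change, HFHS minus CD over both drug arms, of the 33 genes against the length of the longest transcript (log axis), with bars of ± 1 SE; black lines are medians of all tested genes in 8 length classes. The black lines climb from −0.08 to 0.08, the fallen members lie below them at 721 to 3330 bases, and Flnc and Xirp2 lie above them.

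Other genes of the sarcomere and its control came from 5 lists, 126 of whose 137 genes were tested, members being left out. For diet over both arms 13 rose and 3 fell, where 6.59% of all genes tested rose and 5.01% fell. The lists are small and were not tested as sets, so their counts are a description. In the Z-disc and thin filament list 7 of 35 rose and 0 fell, among them the desmin-binding Sync, syncoilin (0.35 ± 0.05, edgeR adjusted p = 0.000134), the cytolinker Plec, plectin (0.25 ± 0.05), the intermediate filament protein Synm (0.28 ± 0.07), the adhesion protein Tln1, talin (0.16 ± 0.03), the alpha-actinin Actn4 (0.18 ± 0.05) and Nrap, which takes part in myofibril assembly (0.22 ± 0.06). In the thick filament and M-band list 0 rose and 2 of 21 fell, the M-band creatine kinase Ckm (−0.28 ± 0.04, edgeR adjusted p = 0.000213) and the myosin heavy chain Myh7b (−0.47 ± 0.09). Of 14 tested isoforms that are not typical of the adult ventricle 1 fell, the slow skeletal troponin T, Tnnt1 (−0.61 ± 0.07), from low levels of 5.68 to 12.3 CPM. The atrial light chains Myl4 (−2.66 ± 0.90, edgeR adjusted p = 0.0797) and Myl7 (−3.45, edgeR adjusted p = 0.0911) are markers of the atrial list and did not pass. Of 32 quality control genes 3 rose, the caveolar Cavin4 (0.25 ± 0.05), the protease Capn3 (0.42 ± 0.10) and Klhl41 (0.19 ± 0.05), and 0 fell. Of 28 regulators of sarcomere genes Mef2d (0.25 ± 0.04, edgeR adjusted p = 0.000767), Mrtfb, a coactivator of serum response factor (0.24 ± 0.06), and the splicing factor Celf1 (0.11 ± 0.03) rose and 0 fell.

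Several of these calls depended on the processing. With length and GC correction those of Nrap, Tln1, Plec, Synm, Mrtfb and Celf1 ended, as did that of Nrap without HFHS untreated replicate 2. The call of Celf1 ended in 10 of the 16 fits that left out 1 library. With the marker scores as covariates those of Nrap (0.27), Myh7b (−0.44), Klhl41 (0.22), Capn3 (0.26) and Celf1 (0.09) ended, Capn3 being the one whose log2 fold change moved by over 1.5 times. Without CD untreated replicates 2 and 3 those of Nrap, Klhl41, Mrtfb and Celf1 ended. By arm, Sync, Ckm and Mef2d passed in both, Myh7b and Cavin4 passed without drug, and Plec, Tnnt1 and Capn3 passed with it. The interaction was past the threshold for none of these 5, the smallest unadjusted p being 0.0052 for Tnnt1 (edgeR adjusted p = 0.932). Leaving out 1 library ended the call without drug in 5 of 16 fits for Myh7b and Mef2d and in 4 for Sync. With drug it did so in 8 fits for Mef2d, 6 for Capn3, 5 for Plec and 2 for Ckm. With the marker scores as covariates 0 of all genes tested passed for diet without drug. That fit ended the calls without drug of Sync (0.18, edgeR adjusted p = 0.488), Mef2d (0.362), Myh7b (0.343), Cavin4 (0.137) and Ckm (0.0609). Leaving out CD untreated replicates 2 and 3 ended those of Sync, Myh7b, Cavin4 and Mef2d. With drug, the covariates ended that of Capn3, and length and GC correction those of Plec and Mef2d.

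Ertugliflozin changed 0 of 33 members on either diet. On CD 0.0189% of all genes passed the edgeR test, on HFHS 0%, and averaged over diets 0% (5.57% at an unadjusted p under 0.05, and 4 members). On CD 3 members had an unadjusted p under 0.05 (9.09%, beside 6.17% of all genes), and on HFHS 0 (beside 4.02%). The largest of these differences on CD were lower Xirp2 (−0.25 ± 0.09, edgeR adjusted p = 0.743) and higher Mylk3 (0.23 ± 0.08, edgeR adjusted p = 0.743), each with overlapping libraries. Mylk3 measured 824, 739.8, 731 and 859 CPM in CD untreated, against the values of 807 to 1004 CPM with the drug. Smpx, a small protein of striated muscle, measured 247, 231, 221 and 237 CPM in CD untreated and 251, 255, 253 and 268 in CD ertugliflozin. Tpm1 measured 9404, 9227, 8960.0 and 9416 in CD untreated and 9572, 9756, 9635 and 10595 in CD ertugliflozin. Both were higher in every treated library, by 0.13 ± 0.05 and 0.10 ± 0.05 on the log2 scale (edgeR adjusted p = 0.762 and 0.822), and Myom1 was lower in every treated library. These 3 are 9.09% of members (2 higher and 1 lower), beside 3.07% of all genes whose CPM did not overlap (1.78% higher and 1.29% lower). On HFHS no member's libraries separated, beside 2.85% of all genes (1.31% higher and 1.54% lower). There Smpx measured 249, 219, 232 and 210.0 CPM without and 232, 232, 242 and 256 with the drug (0.08 ± 0.05), and Tpm1 9018, 8624, 9366 and 9171 without and 9261, 9883, 9096 and 9711 with it (0.07 ± 0.05). Unc45b measured 294, 297, 352 and 325 CPM without and 295, 313, 301 and 289 with it (−0.08 ± 0.06), all 3 genes overlapping. The SE of a member's drug effect ranged from 0.05 to 0.33 with a median of 0.06, so for most members a difference of 0.1 in log2 lay within 2 SE.

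Members varied little within a group: the median within-group SD of log2 CPM was 0.09, against 0.14 over all genes tested. Tcap was the exception at 0.46, followed by Myom2 (0.26) and Ttn (0.24). Every member had at least 1389 counts in each library, while all genes tested include scarce ones. A comparison with genes of like abundance was not made. Tcap measured 660.4, 698, 611 and 1543 CPM in CD untreated, 674, 1532, 1294 and 928 in CD ertugliflozin, 768, 667, 1186 and 812 in HFHS untreated and 886, 785, 1127 and 969 in HFHS ertugliflozin. The groups overlapped widely, HFHS ertugliflozin having the narrowest range, and the diet and drug differences of Tcap were within that spread. Among 12531 genes the 5 whose deviations from the group means were most like those of Tcap over the 16 libraries were Nr1d2 (Pearson r = 0.93, Spearman rho = 0.90), Herpud1, Tns2, Dbp (r = 0.91) and Mt2. Nr1d2 and Dbp are output genes of the circadian clock. Nr1d2 measured 130.1, 116, 110.1 and 200.1 CPM in CD untreated and 97.3, 236, 171 and 144 in CD ertugliflozin, where Tcap was high in the same libraries. The r with Nr1d2 was 0.90 without the 2 libraries farthest from the median. The likeness was sought after the spread of Tcap was seen, so it is a description. The time of day of tissue collection is not given in the sources used here.

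**Figure D5:**
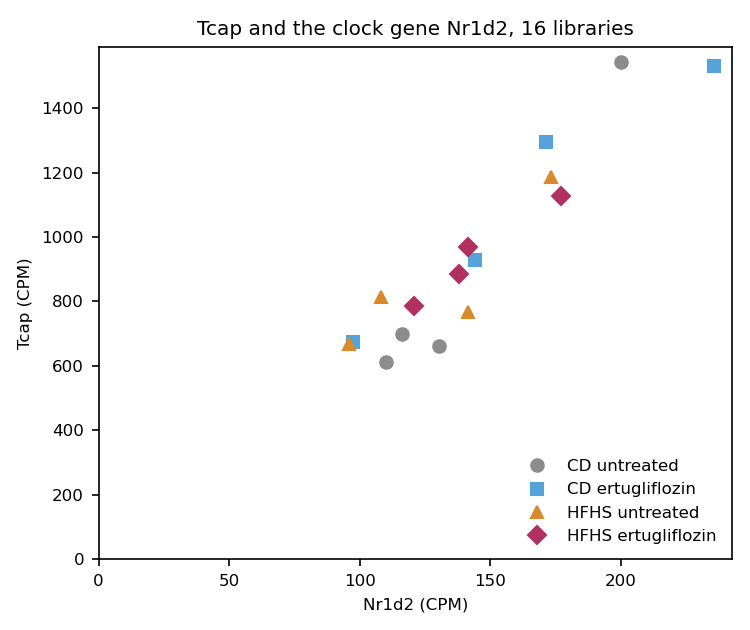
CPM of Tcap against CPM of Nr1d2 in each of the 16 libraries, marked by group. Libraries with more Nr1d2 have more Tcap, from 611 to 1543 CPM, and the groups are mixed along this range.

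For Ttn, whose 4 values were 9332, 8673, 7040.4 and 7538 CPM in CD untreated, 8468, 6867, 5523 and 7139 in CD ertugliflozin, 5993, 8541, 9211 and 9562 in HFHS untreated and 9320.4, 8152, 6955 and 8606 in HFHS ertugliflozin, the groups overlapped. Among the genes most like it were Huwe1 (r = 0.98), Usp9x and Herc1, which belong to the ubiquitin system, and Svil, which encodes an actin-associated protein. The longest transcripts of these 4 had 7907 to 15153 bases, so they share great length with Ttn. Among the members the deviations of Actn2 and Ldb3 (r = 0.92) and of Myom1 and Actn2 (r = 0.91) ran closest together, while the median r over all pairs of members was 0.17, over the 8 fallen members 0.22 and between fallen and risen members −0.10.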

How the data were processed

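Gene counts from 16 libraries (poly(A)-selected, directional kit, per the labels' protocols) were analysed. The authors deposited raw counts for 53764 Ensembl genes and a table of regularized log2 values, used here only as an alternative input. The submitters' processing notes name STAR 2.6.0c, featureCounts, Subread 1.6.2, FastQC 0.11.7, DESeq2 1.22.1 and the mm10 build. Not given in the sources used here: annotation, strand setting and treatment of reads with several matches. Symbols, exons and lengths came from GENCODE M21 (GRCm38), which named 53669 IDs. Totals were 14637669 to 21452212 counts.

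In R 4.3.3 with edgeR 4.0.16, filterByExpr kept 15841 genes, and 1 quasi-likelihood fit with TMM factors and a mean per group gave the diet effect without, with and averaged over drug, the drug effect on each diet and averaged, and their interaction (7 contrasts). Adjustment was Benjamini-Hochberg over all genes, with a threshold of 0.05. SE values equal the absolute log2 fold change over the root of F. CPM uses TMM-scaled totals. Counts of 2 libraries of a group differed beyond sampling noise in all 24 pairs (chi-square over its degrees of freedom 3.24 to 16.3), and every library counted as 1 replicate. The labels do not say whether replicates shared a cage or day. Scripts were tested on simulated counts.

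The members, lists and tests were chosen with earlier results of these data known. Values by library are given for members past the threshold in any contrast, the 5 of smallest p in each comparison of 2 groups and the most abundant of each role, with ranges alone for some. From each list up to 6 genes past the threshold were named. Ttn, Mybpc3, Csrp3 and the genes most like Tcap and Ttn were named after their values were seen. One gene that this takes is not reported here. Alternatives were scaling by RLE or upper quartile, testing without a filter, a filter of 1 CPM in 4 libraries, DESeq2 1.42.0, limma-voom 3.58.1 with sample weights, the deposited log2 values in limma, a replicate block, only the groups compared, atrial and valve scores as covariates, CD untreated replicates 2 and 3 left out together, each library left out, and, added later, a length and GC correction (lowess span 0.3).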

Additional observations from a re-analysis of the deposited data

Results flagged for a closer look

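In 7 of 136 groups of 4 libraries (the 33 members and their share of counts) 1 library lay far from the other 3; chance alone gives about 5% of groups. Actc1 was at 8922 CPM in HFHS untreated replicate 1, against 11238 to 11608 in the others. In the same library Myom1 was at 2029 CPM, against 2428 to 2503. Myom1 was high in CD untreated replicate 1 at 2577 CPM (others 2435 to 2447), as was Csrp3 at 1392 CPM (others 1334 to 1344). Tnnc1 was low in HFHS ertugliflozin replicate 1 at 1968 CPM (others 2202 to 2236), and its call for diet with drug ended without that library (edgeR adjusted p = 0.0631). Mybpc3 was high in HFHS ertugliflozin replicate 4 at 4762 CPM (others 4094 to 4161). Tcap was at 1543 CPM in CD untreated replicate 4, against 611 to 698 in the others.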

How the results depend on the processing

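No gene followed changed sign under the alternatives run. Those genes were past the threshold or among the 5 of smallest p, which makes a change of sign unlikely. The members' median drug effect did change sign. On CD it was 0.037 and reached −0.002 without 1 library, and on HFHS it was −0.008 and reached 0.021. For diet over both arms 10 members passed, 8 to 13 without 1 library and 5 with the atrial and valve scores as covariates; DESeq2 gave 14. For diet with drug the count of 6 was 3 with those covariates, 1 with length and GC correction and 1 to 7 without 1 library. In that comparison the calls of Myl3 and Tnni3 ended without CD ertugliflozin replicate 2, 3 or 4 or any HFHS ertugliflozin replicate. Those of Tnnt2, Xirp2 and Myl2 ended in 6, 10 and 10 of the 16 fits without 1 library. For diet without drug the count of 0 became 1 with upper-quartile scaling, 1 with a filter of 1 CPM, 4 with DESeq2, 4 with limma-voom, and 0 to 3 without 1 library. The replicate block gave 1 for diet without drug (Myl3, edgeR adjusted p = 0.0453) and 5 for diet with drug. Replicate numbers did not pair libraries: correlations of deviations were −0.24 to 0.31 and 7 of 16 libraries correlated best with their own number. With no filter on low counts Xirp2 and Myl3 lost their calls for diet with drug. Counts of members for the drug effects and interaction were 0 throughout. Of 33 levels per length 23 moved by more than 1 SD with the longest transcript. Over all genes 133 to 846 passed for diet without drug and 287 to 844 with drug when 1 library was left out. The main fit had 327 and 584, and the other alternatives gave 0 to 743 and 397 to 906. For diet over both arms 1837 genes passed in the main fit, 1372 to 2530 without 1 library and 777 to 2464 otherwise. With 4 libraries a group the smallest change called in a single arm was that of Myl3 with drug, which fell by 12.7%.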
